A study of Mus musculus with 12 samples.

Results

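The guanylate-binding proteins (GBP) and immunity-related GTPases (IRG) are interferon-induced enzymes that bind and hydrolyse GTP, and 10 of their genes are described here across 12 RNA sequencing libraries of mouse large intestine. They were taken from a table of 28793 genes by symbol: Gbp2, Gbp3, Gbp6, Gbp7 and Gbp9 of the GBP family (5 genes) and Irgm1, Irgm2, Igtp, Iigp1 and Tgtp1 of the IRG family (5 genes). All 10 symbols were found, each on 1 row. Levels are RPKM, reads per kilobase of transcript and scaled to the library total, so they can be compared between genes.

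The mice were C57BL/6 animals of 3 months whose telomerase reverse transcriptase gene, Tert, differed. GFP-sorted cells, labelled as stem or progenitor cells and described as crypt base columnar cells, came from Tert heterozygous mice (generation 0, 3 libraries) and Tert-null animals in their generation 3, called null G3 (3 libraries). Unsorted crypt epithelium came from Tert heterozygous mice (generation 0, 2 libraries), Tert-null animals in their generation 4, called null G4 (2 libraries), and generation 4 mice labelled reactivated (2 libraries). The descriptions add the letters tam to the last of these groups, and they give neither the allele nor the reporter that carries GFP. Libraries are called biological replicates without naming animals, so p-values measure only the spread between these libraries.

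In cells exposed to interferon gamma, the receptor chains Ifngr1 and Ifngr2 signal through the kinases Jak1 and Jak2, and Irf1 and many target genes are switched on, the GBP and IRG genes among them. GBP proteins assemble on the membranes of intracellular bacteria and of the vacuoles that hold parasites, and they help to expose bacterial lipopolysaccharide to inflammatory caspases. Among IRG proteins, Irgm1, Irgm2 and Igtp sit on the cell's own membranes and hold back the effector IRGs such as Iigp1 and Tgtp1, which load onto pathogen vacuoles. The intestinal epithelium is a known site of this cell-autonomous defence.

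The promoters of 7 members were found in RefSeq (GRCm38.p6), in windows from 250 bases before to 50 bases after the start site, and 5 of these are shown, the 3 IRG windows in which both motifs lie side by side and, for contrast, a GBP window with both motifs apart and one with a single motif. Capitals mark matches to the gamma-activated site (GAS, letters TTCNNNGAA, an element of interferon gamma responsive promoters) and to the core of the interferon-stimulated response element (ISRE, GAAA and again GAAA with any 2 bases between), each searched on both strands. Where an ISRE match lies on the opposite strand it reads TTTC on both sides of the 2 bases. The windows are chr11:58199306-58199605 on the plus strand for Igtp, chr11:58214727-58215026 on the plus strand for Irgm2, chr11:48992197-48992496 on the minus strand for Tgtp1, chr3:142620413-142620712 on the plus strand for Gbp2 and chr3:142530086-142530385 on the plus strand for Gbp7.
Igtp: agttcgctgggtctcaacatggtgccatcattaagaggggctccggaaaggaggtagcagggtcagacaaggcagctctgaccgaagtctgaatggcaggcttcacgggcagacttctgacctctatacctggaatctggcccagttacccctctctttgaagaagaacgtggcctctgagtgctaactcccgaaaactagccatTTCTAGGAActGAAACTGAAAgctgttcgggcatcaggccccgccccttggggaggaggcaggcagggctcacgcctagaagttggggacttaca
Irgm2: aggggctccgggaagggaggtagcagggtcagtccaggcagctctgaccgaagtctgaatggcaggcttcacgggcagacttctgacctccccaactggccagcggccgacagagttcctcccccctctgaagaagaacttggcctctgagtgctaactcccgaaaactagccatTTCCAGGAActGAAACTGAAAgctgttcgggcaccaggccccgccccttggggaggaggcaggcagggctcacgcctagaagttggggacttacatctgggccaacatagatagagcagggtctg
Tgtp1: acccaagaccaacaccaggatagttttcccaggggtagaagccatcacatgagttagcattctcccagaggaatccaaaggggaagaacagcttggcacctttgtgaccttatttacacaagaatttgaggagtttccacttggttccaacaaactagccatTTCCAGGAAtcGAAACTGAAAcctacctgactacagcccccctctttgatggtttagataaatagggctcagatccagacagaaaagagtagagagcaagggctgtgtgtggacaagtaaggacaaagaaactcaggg
Gbp2: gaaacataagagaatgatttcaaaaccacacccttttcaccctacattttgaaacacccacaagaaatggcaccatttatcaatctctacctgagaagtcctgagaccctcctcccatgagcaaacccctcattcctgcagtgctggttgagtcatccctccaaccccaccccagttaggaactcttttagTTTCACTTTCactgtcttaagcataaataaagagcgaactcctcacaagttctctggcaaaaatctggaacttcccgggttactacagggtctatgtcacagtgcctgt
Gbp7: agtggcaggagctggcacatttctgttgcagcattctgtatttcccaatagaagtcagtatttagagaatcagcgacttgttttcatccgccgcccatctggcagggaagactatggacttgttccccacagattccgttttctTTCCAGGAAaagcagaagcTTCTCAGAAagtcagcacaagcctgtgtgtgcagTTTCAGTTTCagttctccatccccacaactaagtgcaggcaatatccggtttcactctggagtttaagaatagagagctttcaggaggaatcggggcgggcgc

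An ISRE match was present in at least 1 window of each of the 7 members (Gbp2, Gbp3, Gbp7, Irgm1, Tgtp1, Igtp and Irgm2), against 3.44% of 32851 promoters. Gbp3 has a second annotated start whose window held no match. GAS letters were present in Gbp7 (2 matches), Tgtp1, Igtp and Irgm2, against 8.3% of promoters. In Igtp, Irgm2 and Tgtp1 the GAS letters were followed after 2 bases by the ISRE letters, in the same orientation. That joined run of GAS letters, any 2 bases and ISRE letters, searched on both strands after the 3 windows had been seen, was found in 5 of 32851 promoters (0.0152%): those of Tgtp1, Igtp, Irgm2, Tgtp2 and Gm12185, all on chromosome 11. The windows of the 3 members share sequence, so their matches need not be independent. Igtp and Irgm2 share an unbroken run of 61 bases. Tgtp1 and Irgm2 share one of 20 bases that includes the GAS letters, and Tgtp1 and Igtp one of 14 bases. The windows of Tgtp2 and Gm12185 were not compared in this way. In Gbp2, Gbp3 and Irgm1 only ISRE letters were found in these windows. All matches in these windows lay between positions -106 and -15, counted from the start. A match of letters is a description of the window and not evidence that a factor binds there.

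**Figure D1:**
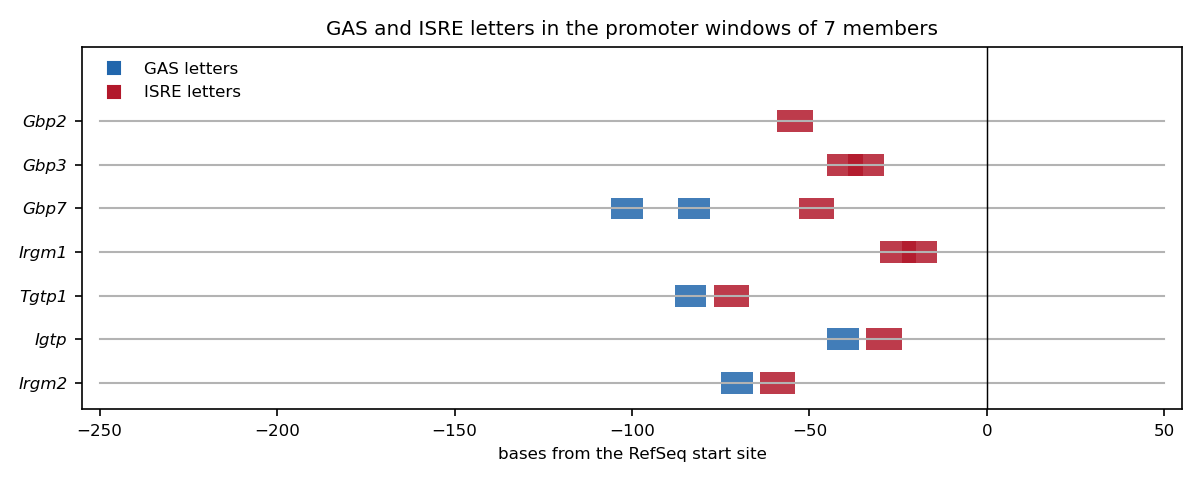
Positions of GAS (blue) and ISRE (red) letters in the promoter windows of 7 members, in bases from the RefSeq start site (x axis); grey lines show the windows, and darker red marks overlapping ISRE matches. The GAS and ISRE letters lie side by side in Tgtp1, Igtp and Irgm2.

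In GENCODE M21 (GRCm38) the genes lie in clusters. Gbp3 (chr3:142560026-142573209), Gbp7 (chr3:142530342-142550149) and Gbp2 (chr3:142620602-142638008) are neighbours on chromosome 3, and Gbp9 (chr5:105077630-105139539) and the row named Gbp6 (chr5:105214907-105293695) lie on chromosome 5. Irgm1 (chr11:48861968-48871683), Tgtp1 (chr11:48985327-48994172), Igtp (chr11:58199556-58207591) and Irgm2 (chr11:58199618-58222782) lie on chromosome 11 and Iigp1 on chromosome 18. The identifier on the row named Gbp6, ENSMUSG00000079362, is called Gm43302 in that release, and 40.0% of its exon bases are shared with the gene called Gbp6 there and 41.6% with Gbp10. The coding sequences of Gbp6 and Gbp10 are 98.4% identical, those of Tgtp1 and Tgtp2 99.7%, those of Gbp6 and Gbp9 90.9%, and those of Gbp3 and Gbp7 79.6%. How reads that fit several copies were counted is not given in the sources used here, so the values of Gbp6, Gbp9 and Tgtp1 are uncertain as values of single genes. Igtp and Irgm2 share 162 exon bases on the same strand (8.01% of Igtp and 4.39% of Irgm2).

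Library quality was uneven between the sets. Low RPKM values were whole multiples of 1 read, within 0.05 reads, for 80.5% to 82.7% of values in unsorted libraries, which put their depth at 75310000 to 103500000 reads. In sorted libraries only 33.3% to 76.2% of low values were whole, so their depth is uncertain. The 2 sets list different genes (25686 sorted, 27658 unsorted) and may have been normalized separately. Null G3 replicate 1 stood apart from the other sorted libraries: summed RPKM of 8 small intestinal enterocyte markers was 5350 against 87.4 to 139 in the other 5, that of 8 stem cell markers was 9.0 against 148 to 205, and 5424 genes reached RPKM 1 against 7721 to 9144. Its stem cell markers were thus the lowest, and its small intestinal ones the highest, of the 6 sorted libraries, against its label. In the unsorted libraries the 10 epithelial markers summed to RPKM 2030 and 2750 in heterozygous crypts, to 3540 and 4300 in null G4 and to 3520 and 3810 in the reactivated libraries. Mitochondrial ribosomal RNA took 19.2% and 27.3% of summed RPKM in unsorted heterozygous libraries and 11.9% to 12% in both null G4 libraries. It took 10.8% and 16.7% in the reactivated ones. In sorted libraries the share was 41.4%, 38.7% and 53.6% in heterozygous and 71.9%, 64.4% and 46.8% in null G3, by replicate. Its part in the levels of sorted cells was not tested.

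Tert RPKM was 0.459 and 0.251 in the unsorted heterozygous libraries and 0.00778 and 0.0377 in null G4. In the libraries labelled reactivated it was 0.0171 and 0.0311, inside the null G4 range, so Tert RNA did not mark the reactivation given in the label. Sorted heterozygous libraries had 0.0424, 0.0583 and 0.169 and null G3 had 0, 0.0787 and 0.00131, which overlap. Whether the null allele still gives reads in part of Tert is not stated.

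The first comparison asks what differs in crypt epithelium after 4 generations without telomerase. All 10 members were higher in both null G4 libraries than in both heterozygous ones, and 8 of the 9 that could be tested rose. The steepest were the effector IRG genes Tgtp1 and Iigp1 and the GBP gene Gbp2, each more than 10 times higher, while Irgm1 rose 2.83 times from the highest starting level. A higher level in all 10 is close to what genes in general did, since 74.7% of 11464 tested genes were higher in null G4 without overlap and 6.5% lower. Mitochondrial ribosomal RNA was lower and epithelial markers were higher in null G4, as given above, and their part in the rise was not tested. The share of members that passed, 8 of 9, stands beside 4.97% of all tested genes called higher and 0.576% called lower.

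Among the effector IRG genes is Tgtp1, whose product damages parasite vacuoles. Its name, T cell specific GTPase, does not tell which cells gave the reads here. Tgtp1 had RPKM 0.135 and 0.106 in heterozygous crypts and 4.18 and 5.36 in null G4. The heterozygous libraries were near the floor of the measurement, with 38 and 30 implied reads against 1009 and 1733. The ratio of means was 39.7, and the rise was 2.36 (SE 0.27, n = 2 against 2) on the log2(RPKM + 1) scale, with adjusted p = 0.00308 by limma with Benjamini-Hochberg adjustment. Iigp1, which loads onto pathogen vacuoles and disrupts them, had RPKM 1.13 and 1.43 in heterozygous crypts and 14.8 and 16.8 in null G4. Its ratio of means was 12.3 and its rise of 2.88 (SE 0.26, limma adjusted p = 0.00111) was the largest of the members on the log2(RPKM + 1) scale, in which the pseudocount of 1 lowers the change of low genes such as Tgtp1.

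The 3 regulatory IRG genes began higher and changed by smaller factors. Igtp, also called Irgm3 and found on the endoplasmic reticulum and lipid droplets, went from RPKM 2.9 and 4.29 to 21.2 and 23.6 (ratio of means 6.24). Irgm2, a Golgi-associated regulator, went from 2.98 and 4.47 to 12.6 and 14.1 (ratio 3.57). Irgm1, whose product regulates autophagy and mitochondria, went from 3.98 and 5.29 to 12.4 and 13.8. The log2 differences were 2.36 (SE 0.28) for Igtp, 1.61 (SE 0.21) for Irgm2 and 1.33 (SE 0.21) for Irgm1, with limma adjusted p of 0.0036, 0.00623 and 0.014. Igtp rose as far on this scale as Tgtp1.

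Of the GBP genes, Gbp2, whose product coats bacterial and parasite membranes, changed most. It had RPKM 0.787 and 1.31 in heterozygous crypts and 11.5 and 13.1 in null G4, a ratio of means of 11.7 and a log2 difference of 2.71 (SE 0.23, limma adjusted p = 0.000699, the smallest among the members). Its neighbours on chromosome 3 moved less. Gbp7, a GBP linked to oxidative killing in phagosomes, went from 0.79 and 1.04 to 3.58 and 3.33 (log2 difference 1.22, SE 0.16, limma adjusted p = 0.00662). Gbp3 went from 0.745 and 1.15 to 3.1 and 3.11 (1.08, SE 0.18, limma adjusted p = 0.0205).

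The 2 members on chromosome 5 had the smallest ratios of means, 2.14 for Gbp6 and 1.82 for Gbp9. Gbp6 had RPKM 0.835 and 0.781 in heterozygous crypts and 1.7 and 1.75 in null G4, with no overlap. Its log2 difference of 0.59 (SE 0.18) did not pass (limma adjusted p = 0.0602). Gbp9 was under RPKM 1 in all 12 libraries and was not tested: it had 0.154 and 0.416 in heterozygous crypts and 0.45 and 0.586 in null G4. Over the 9 tested members the median log2 difference was 1.61, against 0.36 over all 11464 genes.

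**Figure D2:**
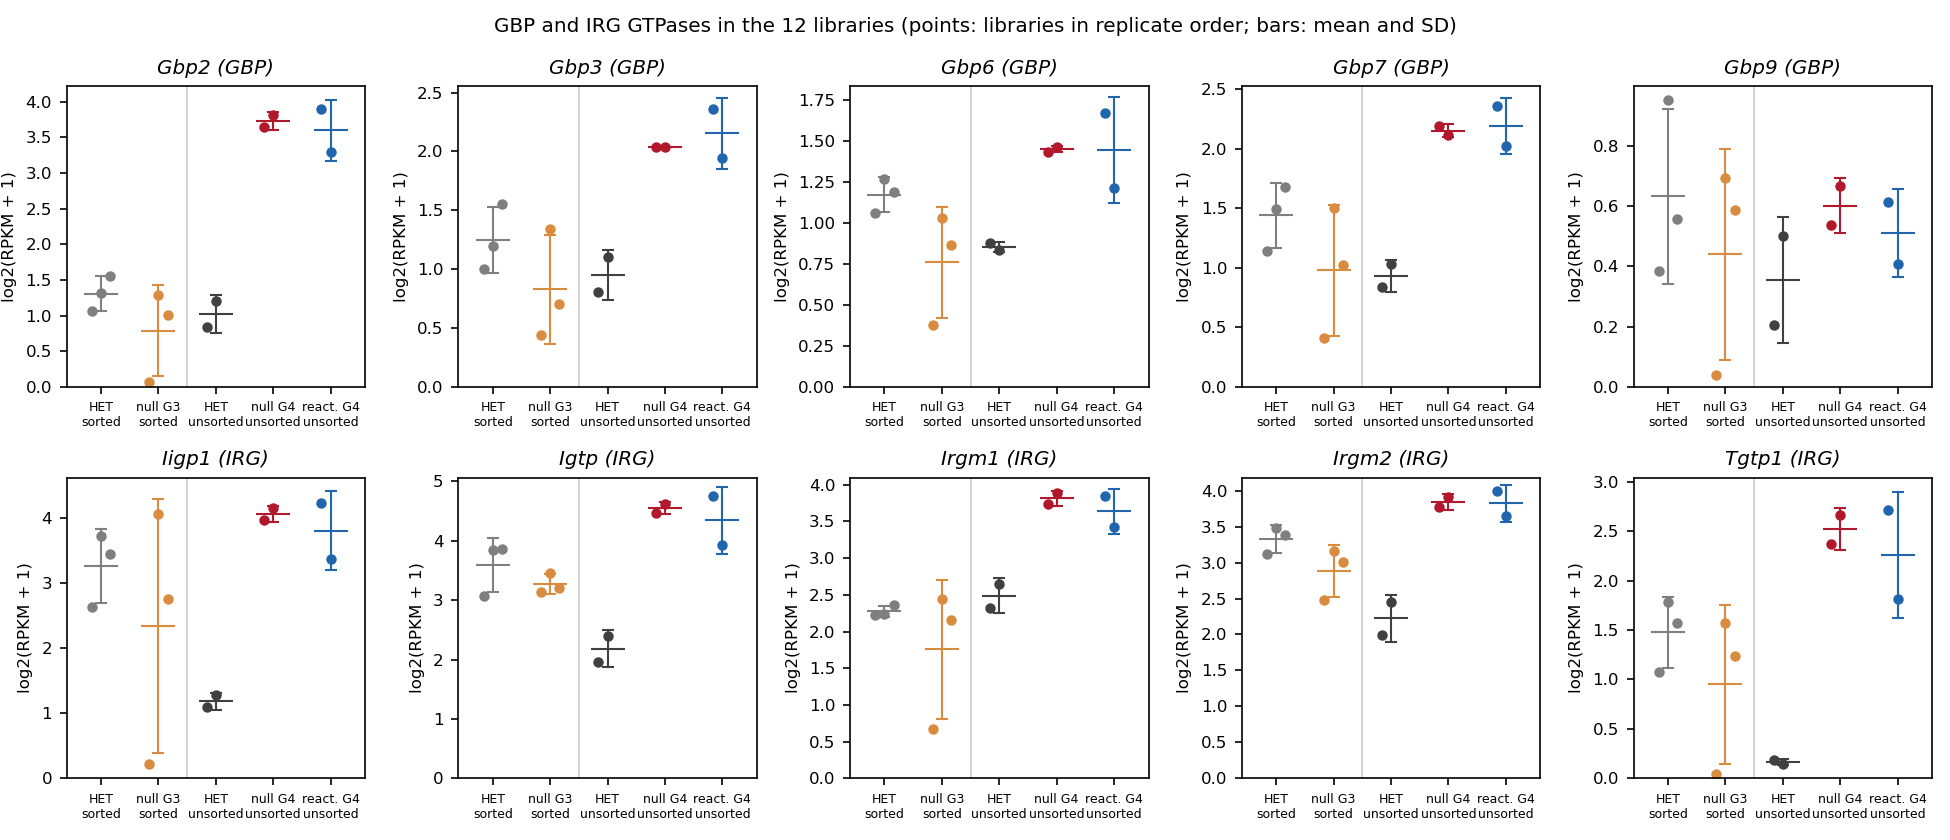
Level of each of the 10 members, as log2(RPKM + 1) on the y axis, in each library (points, in replicate order) with the group mean and SD (horizontal mark and bars); sorted groups stand left of the grey line and unsorted ones right of it, each gene has its own y scale, and HET is heterozygous. Both null G4 libraries lie above both unsorted heterozygous ones in all 10 genes, while the sorted groups overlap in 9.

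Ranked by log2 difference among the 11464 genes, Iigp1 stood 21st, Gbp2 28th, Igtp 34th and Tgtp1 35th, followed by Irgm2 at 82, Irgm1 at 127, Gbp7 at 184, Gbp3 at 274 and Gbp6 at 2524. The count of 8 stayed at 8 when libraries were scaled to 1 median or quantile normalized, settings that bring the median of all genes from 0.36 to 0.02 and 0.016 and its split of 570 higher and 66 lower to 134 and 106, and 135 and 102. It fell to 2 with all 12 libraries in the fit (Gbp2 and Igtp) and to 0 with no filter on low values, where adjusted p was 0.0761 to 0.183 for the 9 members.

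Sex is confounded with these groups. The summed RPKM of 4 Y-linked genes was 18.2 to 18.9 in both heterozygous libraries and in reactivated replicate 2, and at most 0.0148 in both null G4 libraries and in reactivated replicate 1. Within null G4 and heterozygous alone, sex and genotype cannot be told apart. A sex term is estimated only from the reactivated libraries, 1 with Y-linked RNA and 1 without. Any other difference between those 2 libraries counts as sex in such a fit, so it cannot separate sex from them. With sex as a term, carried by the reactivated libraries, 2 members still passed: Gbp2 (log2 difference 2.11, limma adjusted p = 0.0419) and Iigp1 (2.02, limma adjusted p = 0.0253), while the other 7 kept estimates of 0.13 to 1.56. Among the 3 libraries with Y-linked RNA, reactivated replicate 2 was above both heterozygous ones for 9 of 10 members, against 50.5% of genes, at 1.63 to 20.9 times their mean in those 9.

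The order of the members differed between the groups. In heterozygous crypts the regulators led, with mean RPKM 4.63 ± 0.932 (SD, n = 2) for Irgm1, 3.72 ± 1.05 for Irgm2 and 3.59 ± 0.983 for Igtp, which overlapped each other and were all clear of Iigp1 at 1.28 ± 0.213. Gbp2, Gbp3, Gbp7 and Gbp6 overlapped each other, with means from 1.05 down to 0.808, and Gbp2 and Gbp3 overlapped with Iigp1 as well. Then came Gbp9 at 0.285 and Tgtp1 at 0.12. In null G4 the order was Igtp (22.4 ± 1.69), Iigp1 (15.8 ± 1.44), then Irgm2, Irgm1 and Gbp2 with overlapping values around means of 13.3, 13.1 and 12.3, then Tgtp1 (4.77 ± 0.837), Gbp7, Gbp3, Gbp6 and Gbp9. Tgtp1 thus went from last place to the sixth.

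The balance of effector and regulatory IRG transcripts among the members was compared after these values were seen. It can be read within each library and does not depend on its scaling. Iigp1 and Tgtp1 together amounted to 0.128 and 0.109 times the summed RPKM of Irgm1, Irgm2 and Igtp in heterozygous crypts. In null G4 this ratio was 0.411 and 0.43, and in the reactivated libraries 0.433 and 0.336. In sorted heterozygous cells it was 0.336, 0.538 and 0.441, and in sorted null G3 cells 0.0148, 0.791 and 0.382. This ratio was thus lower in the unsorted heterozygous libraries than in every other library except null G3 replicate 1, the one that stood apart. It leaves out Tgtp2, the near-identical copy of Tgtp1, and the effector genes Gm12250 and Ifi47. Gm12250 had RPKM 1.1 and 2.2 in unsorted heterozygous crypts and 7.38 and 8.86 in null G4. Ifi47 had 2.03 and 4.1, then 12.1 and 14.2, and Tgtp2 had 0.178 and 0.265, then 2.95 and 3.44. The size of the shift holds for Iigp1 and Tgtp1 only, and the ratio with these genes added was not tested.

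The second comparison asks whether the members returned in the crypts labelled reactivated. None of the 9 tested members passed against null G4, and all 10 overlapped with it, whereas 4.58% of all genes were higher and 25.5% lower without overlap. Igtp had RPKM 25.8 and 14.3 in the 2 reactivated libraries, Iigp1 17.9 and 9.42, Gbp2 13.9 and 8.82 and Tgtp1 5.56 and 2.51. Irgm2 had 15.0 and 11.5, Irgm1 13.4 and 9.73, Gbp3 4.15 and 2.84, Gbp7 4.13 and 3.07, Gbp6 2.18 and 1.32, and Gbp9 0.531 and 0.325. The first reactivated library was above the second for every member, by 1.31 to 2.22 times.

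Estimates on the log2 scale ran from -0.26 (Tgtp1) to 0.11 (Gbp3), with a median of -0.14 that equals the median of all genes, and limma adjusted p was 0.833 to 0.989. Across all genes 0.0174% were called higher and 0.00872% lower, and no member had an unadjusted p under 0.05, against 310 genes. The 95% intervals were -0.66 to 0.38 for Gbp2, -0.86 to 0.35 for Iigp1, -0.87 to 0.35 for Tgtp1 and -0.84 to 0.43 for Igtp. For each of the 9 members the lower bound was smaller in size than its difference between null G4 and heterozygous crypts. These intervals do not show that the groups are alike. Without reactivated replicate 2 the estimates of Gbp2, Gbp6, Iigp1, Igtp, Irgm1, Irgm2 and Tgtp1 turned positive, to between 0.035 and 0.22, and none passed.

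The 2 reactivated libraries fell on opposite sides of null G4. Reactivated replicate 1 was above both null G4 libraries for 8 of 10 members, against 26.8% of genes, and was the highest of the 6 unsorted libraries for these 8, against 19.6% of genes. Replicate 2 was below both for 10 of 10, against 78.2% of genes. Replicate 2 is the one with Y-linked RNA, and the part of sex in this difference was not tested.

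Set against heterozygous crypts, the same 8 members rose in the libraries labelled reactivated, and these 2 comparisons share their heterozygous libraries. The log2 differences were 2.57 (SE 0.23) for Gbp2, 2.63 (SE 0.26) for Iigp1, 2.16 (SE 0.28) for Igtp and 2.1 (SE 0.27) for Tgtp1, with limma adjusted p of 0.00123, 0.0024, 0.00858 and 0.00809. Irgm2 (1.6), Gbp7 (1.26), Gbp3 (1.2) and Irgm1 (1.15) passed with limma adjusted p of 0.00958, 0.00866, 0.0204 and 0.0405, and Gbp6 (0.59) did not (limma adjusted p = 0.229). Of all genes 1.13% were called higher and 0.148% lower. The median over the 9 members was 1.6 against 0.22 over all genes, and groups did not overlap for 9 of 10 members, against 46.7% of genes. Without reactivated replicate 1, or with sex as a term, 5 members passed: Gbp2, Gbp7, Iigp1, Igtp and Tgtp1. The count was 2 with all 12 libraries in the fit (Gbp2 and Igtp) and 0 with no filter on low values.

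**Figure D3:**
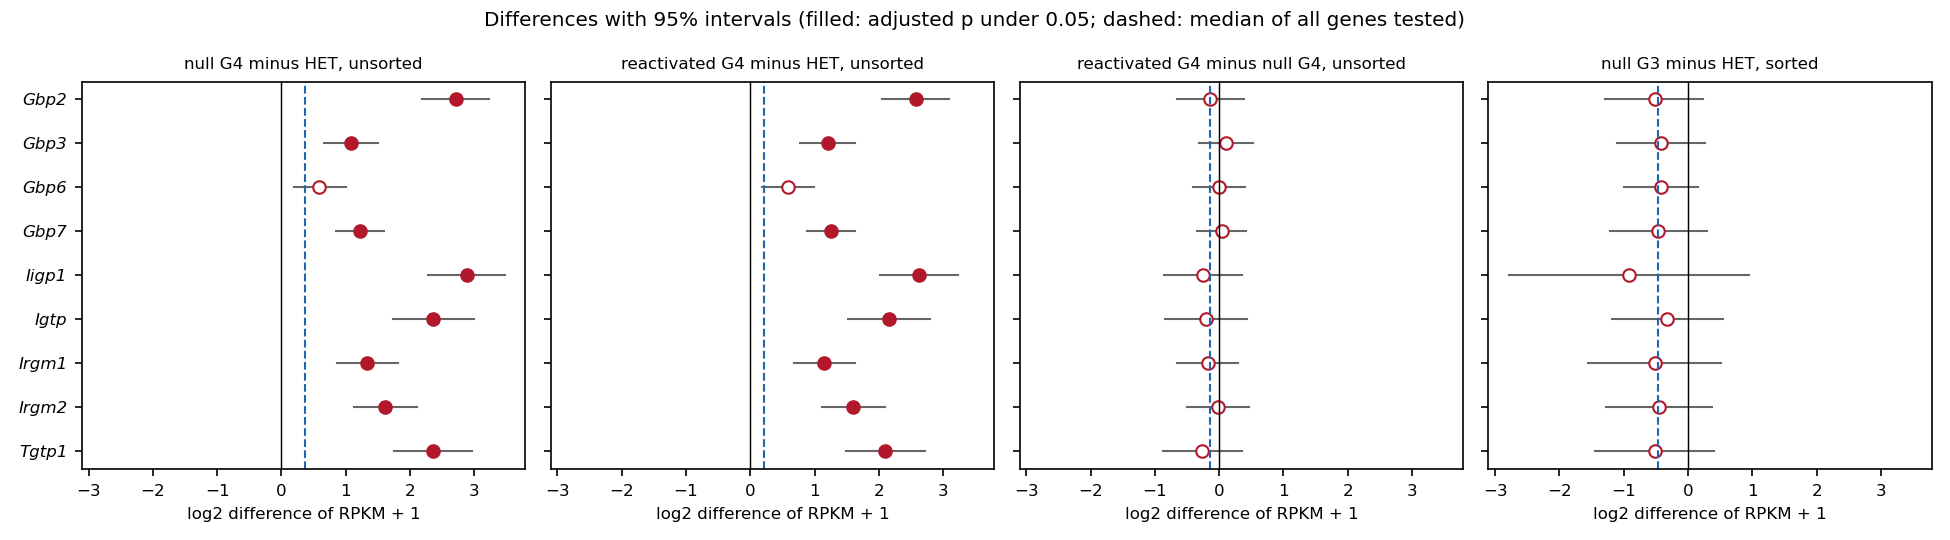
Differences in log2(RPKM + 1) (x axis) with 95% intervals (lines) for the 9 tested members in 4 comparisons; filled points passed at an adjusted p under 0.05, and dashed blue lines mark the median of all genes tested. The members lie to the right of the dashed line in both comparisons with unsorted heterozygous crypts and around it in the other 2.

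The third comparison asks whether the sorted stem cell population differs after 3 generations without telomerase. None of the 9 tested members passed, and no gene of 8734 did (0% called in each direction). The test had little reach: in simulated data for this comparison 0% of genes changed by 1 log2 unit and 12% of those changed by 2 were recovered, and 143 genes, none of them a member, had an unadjusted p under 0.05. Estimates ran from -0.92 (Iigp1) to -0.32 (Igtp), with a median of -0.46 that equals the median of all genes, and limma adjusted p was 0.481 to 0.554.

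Iigp1 had RPKM 5.19, 12.2 and 9.97 in sorted heterozygous cells and 0.162, 15.7 and 5.8 in null G3, so the null group held both the lowest and the highest of the 6 libraries. Tgtp1 had 1.11, 2.44 and 1.97 against 0.0307, 1.98 and 1.36. Gbp2 had 1.08, 1.49 and 1.93 against 0.0491, 1.43 and 1.01. The first value of each null G3 group comes from the library that stood apart, which was the lowest of 6 for 9 of 10 members, against 79.2% of genes.

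Igtp was the exception to that pattern, with 7.37, 13.3 and 13.5 against 7.82, 10 and 8.23. Irgm2 had 7.68, 10.2 and 9.42 against 4.57, 7.93 and 7.04, and Irgm1 had 3.68, 3.7 and 4.15 against 0.598, 4.42 and 3.45. Among the remaining GBP genes, Gbp3 (1.0, 1.29 and 1.93 against 0.358, 1.53 and 0.631) and Gbp7 (1.21, 1.82 and 2.21 against 0.329, 1.84 and 1.03) overlapped between the groups, as did Gbp9 (0.306, 0.935 and 0.471 against 0.0268, 0.615 and 0.503). Gbp6 was lower in null G3 without overlap (1.08, 1.41 and 1.28 against 0.299, 1.04 and 0.823), as were 12.6% of tested genes.

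Without the library that stood apart, the null G3 mean was 0.739 to 1.18 times the heterozygous mean, with a median of 0.822 over the 10 members. Null G3 replicate 2 lay inside the heterozygous range for 7 members and above it for Iigp1 and Irgm1, and it was the 1 sorted library with Y-linked RNA. Mitochondrial ribosomal RNA took 64.4% of summed RPKM in that library, more than in any sorted heterozygous one. Null G3 replicate 3 lay below all heterozygous libraries for 6 of 10 members, against 18.1% of genes. Without replicate 1 the estimates of Iigp1 and Irgm1 turned positive (0.14 and 0.021, limma adjusted p = 0.919 and 0.974).

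Set side by side, sorted heterozygous cells had higher levels than unsorted heterozygous crypts for 6 members without overlap: Tgtp1 (15.3 times), Iigp1 (7.13), Igtp (3.17), Irgm2 (2.44), Gbp7 (1.91) and Gbp6 (1.56). Of all genes 20% were higher in this way and 54.9% lower. Irgm1 was at 0.83 times. The sets may have been normalized separately and differ in their share of mitochondrial ribosomal RNA, as given above, and the part of neither was tested. Summed RPKM of the Y-linked genes was 0.0129 to 0.0562 in the sorted heterozygous libraries and 18.3 and 18.9 in the unsorted ones. Sex and sorting therefore cannot be told apart in this comparison. In these mixed samples, a change in the share of a cell type and a change in RNA per cell cannot be told apart.

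The difference of the null effects (null G3 minus heterozygous in sorted cells, less null G4 minus heterozygous in unsorted crypts) was negative for all 9 tested members, from -3.8 (Iigp1) to -1.01 (Gbp6), with a median of -2.06 against -0.73 over 11862 genes. Only Gbp2 passed (-3.23, SE 0.49, limma adjusted p = 0.0219), and adjusted p of the other 8 was 0.0518 to 0.19. Of all genes 0.303% were called lower and 0% higher. The count of members depended on single libraries: it was 7 without null G3 replicate 1, 9 without null G3 replicate 3, 2 without reactivated replicate 1 or replicate 2, and 0 without any 1 of the heterozygous or null G4 libraries. It was also 0 with quantile normalization, median scaling or a sex term. Generation differs between the 2 null groups as well as sorting. Y-linked RNA separates heterozygous from null libraries in the unsorted set but not in the sorted one. The parts of sorting, generation and sex cannot be told apart.

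A list of further genes of the 2 families matched 20 rows of the table, and 6 of these reached the level for testing in unsorted crypts. Gm12250, which encodes the effector Irgb10 that opens bacterial membranes, had RPKM 1.1 and 2.2 in heterozygous crypts, 7.38 and 8.86 in null G4 and 8.74 and 6.29 in the libraries labelled reactivated (null G4 minus heterozygous 1.81, limma adjusted p = 0.00564). Tgtp2, the near-identical copy of Tgtp1, had 0.178 and 0.265, then 2.95 and 3.44, then 4.43 and 1.69 (1.78, limma adjusted p = 0.016). Gbp4 (0.173 and 0.246 against 1.34 and 1.23 in null G4) and Gbp8 (0.292 and 0.608 against 1.8 and 1.79), both of the chromosome 5 cluster, rose by 0.92 and 0.95 (limma adjusted p = 0.0319 and 0.0427).

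Gm5431 (0.986 and 1.73 against 2.48 and 2.64) and Irgq (3.33 and 3.08 against 4.37 and 4.31) did not pass, with limma adjusted p of 0.0634 and 0.125. Irgq is a family relative not known for interferon induction, and its difference of 0.35 was close to the all-gene median. Gm4951 and Gm12185 reached at most 1.07 and 1.01 in unsorted crypts. The other 12 rows stayed under RPKM 1 in all 6 unsorted libraries, with the highest value 0.806 in F830016B08Rik. They are Gbp2b, Gbp5, Gbp10, Gbp11, Irgc1, Gvin1, Gm4070, Gm8995, Gm12187, 9930111J21Rik1, 9930111J21Rik2 and F830016B08Rik, with Gbp11 at 0 in all 6. Gbp5, a GBP that promotes inflammasome assembly, had 0.0565 and 0.0861 in heterozygous crypts and 0.586 and 0.529 in null G4.

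Upstream of the members, Irf1, a transcription factor that interferon gamma induces, rose from RPKM 12.4 and 15.4 in heterozygous crypts to 32.8 and 36.3 in null G4 (log2 difference 1.26, limma adjusted p = 0.0193), and had 34.6 and 28.8 in the libraries labelled reactivated. The receptor chains Ifngr1 (0.70) and Ifngr2 (0.077), the kinases Jak1 (0.50) and Jak2 (0.61), the factors Irf8 (0.75) and Irf9 (0.40) and the inhibitor Socs1 (0.69) did not pass, with limma adjusted p of 0.0505 to 0.808. Ifng, the ligand itself, was at RPKM 0 and 0.00937 in heterozygous crypts, 0.121 and 0.0247 in null G4 and 0.0162 and 0.016 in the reactivated libraries. These values are near the floor of the measurement, the highest comes from 1 library, and Ifng was not tested. Of the 17 tested genes of interferon gamma signalling 5 rose, among them Socs3, Batf2, Irf1 and Stat3, and none fell, with a median of 0.63 against 0.36. The share of all tested genes called higher was 4.97%.

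Interferon gamma targets and type I interferon targets were counted as 2 lists that share Zbp1, and the difference between these lists was not tested. Of 20 tested interferon gamma targets 16 rose and none fell, with a median of 1.63 beside 1.61 for the members. Smallest in p were Cd74, the invariant chain of MHC class II (5.04), Ubd, a ubiquitin-like modifier (2.74), Upp1, a uridine phosphorylase (3.49), and Ciita, the master regulator of MHC class II genes (2.47), with limma adjusted p of 5.5e-05, 5.5e-05, 0.000124 and 0.000124. Of 23 tested type I interferon targets 2 rose (Zbp1 by 0.91 and Bst2 by 1.11) and none fell, with a median of 0.18. Beside both lists, 4.97% of all tested genes were called higher and 0.576% lower. The antiviral GTPase Mx1, whose fold resembles that of GBPs, had 3.0 and 1.88 in heterozygous crypts and 1.03 and 0.753 in null G4 (-0.85, limma adjusted p = 0.0504), and Ifit2 had an estimate of 0.80 (limma adjusted p = 0.0538).

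Proteins that work with the GBP and IRG families were a further list. Of 26 tested partner genes (autophagy conjugation, ubiquitin ligases, inflammatory caspases) 1 rose, near the share of all tested genes called higher, 4.97%. It was Casp4, which encodes the mouse caspase-11 that senses lipopolysaccharide. Casp4 had RPKM 1.7 and 2.72 in heterozygous crypts and 6.01 and 5.99 in null G4 (1.14, limma adjusted p = 0.0185). Ube2l6, Trim21 and Uba7 had estimates of 0.75, 0.70 and 0.58 (limma adjusted p = 0.0507 to 0.0589). None of 10 tested GTPases of the dynamin and EHD groups passed, with a median of 0.60. Of 4 tested genes of type I and III interferon signalling none passed, with a median of 0.36. In the libraries labelled reactivated against null G4, none of the genes in these lists passed.

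**Figure D4:**
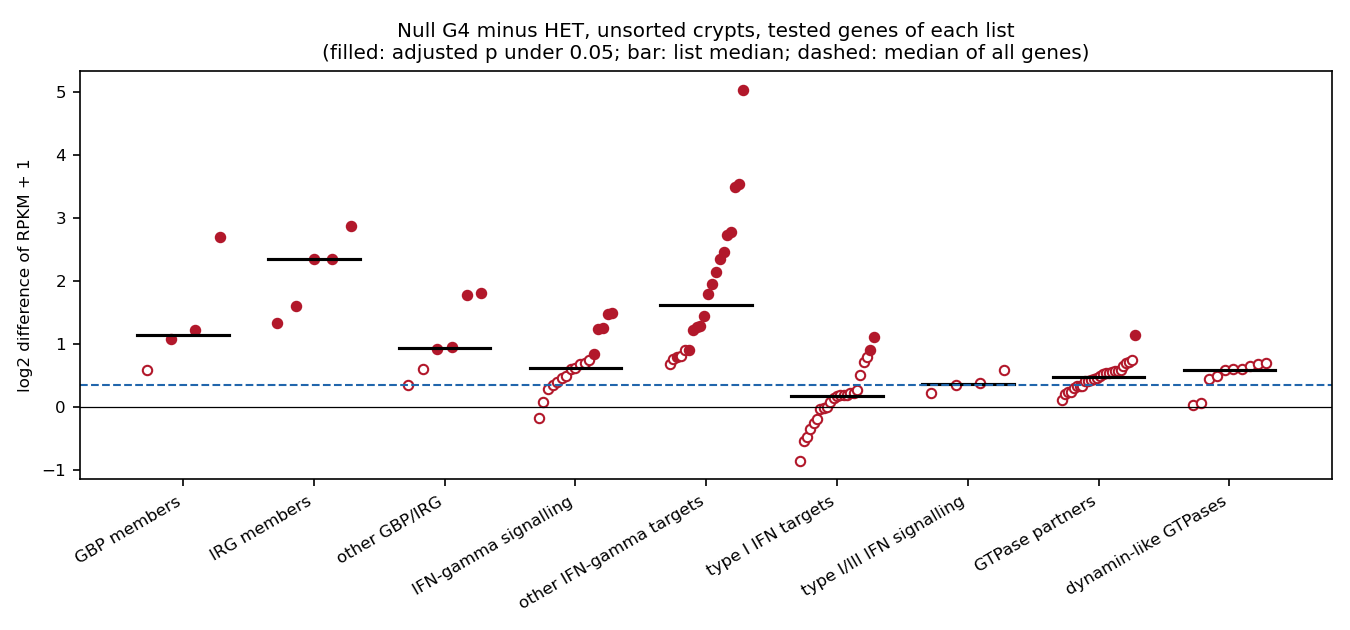
Null G4 minus heterozygous differences in log2(RPKM + 1) (y axis) for the tested genes of each list (x axis), unsorted crypts; filled points passed at an adjusted p under 0.05, black bars are list medians and the dashed blue line is the median of all genes, 0.36. The IRG members (median 2.36), the GBP members (1.15), the other interferon gamma targets (1.63), the other GBP and IRG genes (0.94), interferon gamma signalling (0.63), dynamin-like GTPases (0.60) and partners (0.49) have medians above the line.

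Among the 5 genes whose profile over the 6 unsorted libraries was most like the mean of the members, of 11464 compared, were H2-Q7 (Pearson r 0.9987), H2-T22 (0.9982), Psmb9 (0.9979) and Dhrs7 (0.9976). H2-Q7 and H2-T22 encode MHC class I proteins and Psmb9 a subunit of the immunoproteasome. These are descriptions over 6 libraries that share the group structure and depth. The members themselves followed the mean of the other 9 with r of 0.96 to 1, except Gbp9 (0.76), the lowest in level.

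Markers of immune cells, which also express these GTPases, were examined beside the rise. The 15 T and NK cell markers summed to RPKM 7.4 and 19.9 in heterozygous crypts and 10 and 8.78 in null G4. In the libraries labelled reactivated they summed to 8.39 and 3.55. None of 5 tested passed. Of the 15, 1 was higher in null G4 than in heterozygous crypts without overlap and 3 lower, beside 74.7% and 6.5% of all tested genes. The part of T and NK cells in the members' rise was not tested. The 12 myeloid markers summed to 9.07 and 9.29, then 24.3 and 29.4, then 22.9 and 17.4. Most of that sum was Cd14 (6.37 and 5.59 against 21.2 and 26.1 in null G4), which rose by 1.81 (limma adjusted p = 0.00271), whereas C1qa fell by 1 (limma adjusted p = 0.0498). Sorted heterozygous cells had Cd14 at RPKM 11.5, 11.1 and 6.12 and C1qa at no more than 0.00537. Which cells gave the Cd14 reads was not tested, so the sum is not a measure of myeloid cells alone. The other 10 of the 12 were under RPKM 1 in all 6 libraries. In all, 6 of the 12 were higher in null G4 than in heterozygous crypts without overlap and 2 lower, beside 74.7% and 6.5% of all tested genes. The higher ones included Itgam (0.134 and 0.218 against 0.458 and 0.451) and Lyz2 (0.171 and 0.286 against 0.693 and 0.784). Sorted heterozygous cells had Itgam at 1.24, 1.12 and 0.856. Cd68 (0.652 and 0.541 against 0.869 and 0.617) and Csf1r (0.0979 and 0.111 against 0.128 and 0.0468) overlapped. Fcgr1 was lower in null G4 (0.00878 and 0.0262 against 0.00513 and 0). No myeloid marker was at 0 in all 6, and the part of these cells in the members' rise was not tested. Of 7 B and plasma cell markers 6 were under RPKM 1 throughout, the exception being Sdc1, which epithelium also expresses, and all 5 endothelial markers were under RPKM 1. The 8 fibroblast and muscle markers summed to 1.64 and 2.04 in heterozygous crypts and to 3.39 and 4.15 in null G4. In the reactivated libraries they summed to 3.04 and 1.72. Of the 8, 7 were higher in null G4 without overlap, beside 74.7% of all tested genes. That share covers only genes that reached the level for testing. Most of the T and NK cell, myeloid and fibroblast markers did not reach it, so the share is not a like background for them. The part of fibroblasts and muscle in the members' rise was not tested. Of 12 tested goblet cell rows 3 fell and none rose, beside 0.576% of all tested genes called lower and 4.97% higher. They were Ang4 (by 4.88), Clca3 (by 2.49) and Fcgbp (by 1.17), with limma adjusted p of 4.36e-05, 0.00132 and 0.0398.

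**Figure D5:**
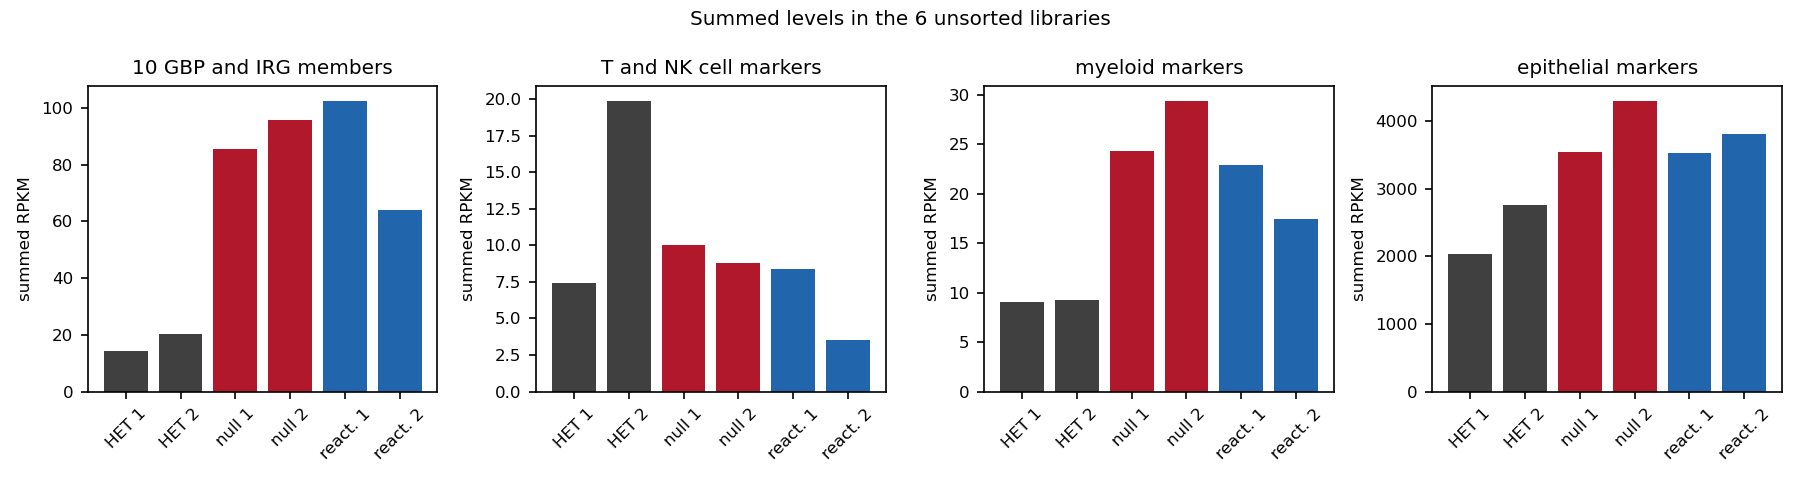
Summed RPKM (y axes, each panel with its own scale) of the 10 members, of T and NK cell, myeloid and epithelial markers in the 6 unsorted libraries (x axis; HET is heterozygous). The T and NK cell sum is 7.4 and 19.9 in the heterozygous libraries, on both sides of null G4 (10 and 8.78). Most of the myeloid sum is Cd14, which sorted heterozygous cells also held. The members are lowest in both heterozygous libraries.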

How the data were processed

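Libraries were prepared from 1 ug of RNA (RNeasy Mini extraction, TruSeq RNA kit), per the labels' protocols. STAR 2.3.0e and mm10 appear in the submitters' processing notes, with no role. Neither the annotation nor the read counting method is given in the sources used here. The deposited values are RPKM as made by the authors, for 28793 genes in 12 libraries. All were used, and no test on read counts was run.

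After transformation to log2(RPKM + 1), genes with RPKM of at least 1 in at least 2 of the fitted libraries (3 for sorted cells) were tested. The test was limma 3.58.1 in R 4.3.3 (two-sided, empirical Bayes, mean trend), with Benjamini-Hochberg adjustment over all genes tested. Passing means an adjusted p under 0.05, and "rose" and "fell" are used only then. The 3 unsorted groups were fitted together, the 2 sorted groups together, and the difference of null effects over all 12 libraries. In simulated data for null G4 against heterozygous (11464 genes), 47% of genes changed by 1 log2 unit and 88% of those changed by 2 were recovered. In those for the difference of null effects (11862 genes) the shares were 1% and 18%. Alternatives changed the pseudocount, filter, scaling, trend, libraries, replicate block and sex term.

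The members, gene lists and tests were chosen with earlier results of these data known. Named genes were all members, Tert, the rows of a list of other GBP and IRG genes (which missed Ifi47), 10 genes of interferon gamma signalling, up to 4 of smallest p in the other lists and the 5 most like genes. A gene under this rule is not reported here. Ifi47, the joined motif, the marker genes and the remaining signalling genes were named after their values were seen. Gene positions come from GENCODE M21, in which 28224 (98%) of the identifiers were found. Promoters come from RefSeq and were not used for Gbp6, Gbp9 and Iigp1. Protein sequences were not analysed here. Python 3.11.15, pandas 2.3.3, numpy 2.4.6, Biopython 1.88 and matplotlib 3.10.9 were used.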

Additional observations from a re-analysis of the deposited data

Results flagged for a closer look

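In the main fit the null effect on Gbp2 differed between sorted cells (generation 3) and unsorted crypts (generation 4). Its null effect in sorted cells less that in unsorted crypts was -3.23 on the log2(RPKM + 1) scale (SE 0.49, 95% interval -4.31 to -2.16, limma adjusted p = 0.0219). It no longer passed with a pseudocount of 0.1, no filter on low values, quantile normalization, median scaling or a sex term. Nor did it pass when any 1 sorted heterozygous library was left out, and it depended on further single libraries, as given above. The levels were 1.5 ± 0.427 (SD, n = 3) in sorted heterozygous and 0.829 ± 0.707 (n = 3) in null G3 cells, and 1.05 ± 0.372 (n = 2) in unsorted heterozygous and 12.3 ± 1.14 (n = 2) in null G4 crypts. The sets differ in sorting, generation, the share of mitochondrial ribosomal RNA, the library that stood apart and possibly normalization. They also differ in Y-linked RNA, which separates heterozygous from null libraries in the unsorted set but not in the sorted one. These cannot be told apart.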

How the results depend on the processing

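For null G4 against heterozygous crypts the count of 8 members that rose became 0 with no filter on low values, 2 with a sex term and 2 with all 12 libraries, and was 7 to 9 when each library was left out. For the reactivated libraries against heterozygous the count of 8 became 0 with no filter, 5 with a sex term and 2 with all 12 libraries, and was 5 to 9 with a library left out, the 5 being without reactivated replicate 1. For the difference of null effects the count of 1 that fell became 0 with a pseudocount of 0.1, with no filter, with quantile normalization, with median scaling and with a sex term, became 2 without the mean trend and 2 with the replicate block, and was 0 to 9 with a library left out. No member passed under any alternative run in null G3 against heterozygous sorted cells or in reactivated against null G4. The estimate of every tested member stayed above 0 in both comparisons with unsorted heterozygous crypts under every alternative run. The cause was not tested for any of these changes.

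Estimates of members that did not pass changed sign in 33 cases. In sorted cells they were 0.0039 (Gbp3), 0.0052 (Gbp6), 0.13 (Igtp) and 0.017 (Irgm2) with quantile normalization, 0.33 (Igtp) and 0.18 (Irgm2) with median scaling, and 0.14 (Iigp1) and 0.021 (Irgm1) without null G3 replicate 1. With each library left out in turn these 2 ranged from -1.78 to 0.14 and from -0.86 to 0.021. In reactivated against null G4 they were 0.034 (Gbp2), 0.071 (Gbp6) and 0.15 (Irgm2) with quantile normalization and 0.025, 0.097 and 0.15 for the same genes with median scaling. With a sex term, and also without reactivated replicate 2, they were 0.16 (Gbp2), 0.22 (Gbp6), 0.18 (Iigp1), 0.2 (Igtp), 0.035 (Irgm1), 0.17 (Irgm2) and 0.19 (Tgtp1). Without null G4 replicate 2 they were 0.0079 (Gbp6), -0.0024 (Gbp7) and 0.062 (Irgm2), and without reactivated replicate 1 -0.099 (Gbp3) and -0.13 (Gbp7). The lowest estimates with a library left out were -0.44 (Gbp2), -0.24 (Gbp6), -0.68 (Iigp1), -0.61 (Igtp), -0.39 (Irgm1) and -0.71 (Tgtp1).

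The replicate numbers were not taken to pair the libraries: same-numbered libraries deviated from their group means with r of 0.22, -0.069 and -0.12 in unsorted and 0.053, -0.03 and -0.19 in sorted groups. With the replicate block 8 members rose in null G4 and 8 in reactivated against heterozygous crypts, as without it.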

Other observations

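Ifi47, which encodes an effector IRG, was not among the lists and was looked up after the other values were seen. Its RPKM was 2.03 and 4.1 in unsorted heterozygous crypts, 12.1 and 14.2 in null G4 and 13.7 and 9.34 in the libraries labelled reactivated. In sorted cells it had 8.39, 13.1 and 9.09 in heterozygous and 3.73, 10 and 8.54 in null G3 libraries.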
